A study of Mus musculus with 8 samples.

Results

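The Janus kinases Jak1, Jak2, Jak3 and Tyk2, the transcription factors Stat3, Stat4, Stat5a, Stat5b and Stat6, and the feedback inhibitor Socs3 were examined in bulk RNA-seq of splenic B cells from diseased mice. These 10 genes were chosen by symbol, out of 24902 gene symbols in the count matrix, and all 10 passed the expression filter that left 13173 genes for testing. The 8 mice had met early removal criteria (ERC), the point of disease at which the animals were euthanized. Of these, 4 were Eµ-PRMT5 mice, 3 were Eµ-PRMT5/TCL1 mice and 1 was an Eµ-TCL1 mouse, all labelled as strain C57BL/6N. Eµ-PRMT5 mice carry human PRMT5 (Eµ-hPRMT5), an arginine methyltransferase, under an immunoglobulin heavy chain promoter and Eµ enhancer that are active in B cells. Eµ-TCL1 mice carry human TCL1 (Eµ-hTCL1) under the same kind of control and are a long-used model of chronic lymphocytic leukemia (CLL), and Eµ-PRMT5/TCL1 mice carry both transgenes (Eµ-hPRMT5/hTCL1). No mouse without a transgene was analysed here, so each level is that of a diseased spleen, and the labels used here give no ages. The title of Eµ-PRMT5 mouse 2 carries the name of 1 of the 3 transgenic founders given in the methods, and the titles of the other Eµ-PRMT5 mice carry no founder name. The titles of Eµ-PRMT5 mice 3 and 4 carry names of mice whose histology the paper describes. Under the name of mouse 3 it reports anaplastic large lymphocytes with histiocytes, and under that of mouse 4 sheets of small lymphocytes. Each library is 1 mouse, and cells came from negative selection with a pan-B isolation kit.

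Cytokine receptors have no kinase activity of their own and depend on JAK proteins bound to their cytoplasmic tails. Binding of a ligand activates the JAKs, which phosphorylate the receptor and then the recruited STATs, and paired STATs enter the nucleus and bind DNA. SOCS proteins are made in response and bind the receptor or the kinase, which closes the loop. In B cells IL-4 signals through Jak1, Jak3 and Stat6, IL-10 and IL-6 signal through Stat3, and activated STAT3 is a known feature of CLL cells. RNA levels do not measure phosphorylation, on which the activity of these proteins depends.

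Many STAT dimers bind the palindrome TTCNNNGAA, and Stat6 also binds a form with 4 in place of 3 free bases between TTC and GAA. Both strands read alike for either pattern, and each was searched in the 13 RefSeq promoter windows of the 10 genes (GRCm38.p6, 250 bases before and 50 after the start site). Socs3 was the only one of the 10 genes with TTCNNNGAA, beside 8.30% of the 32851 windows in the whole table, and none of the 13 windows held the form with 4 free bases, beside 6.95% of all windows. The stretch around the Socs3 match is shown because Socs3 is the member whose RNA stood farthest from the Eµ-TCL1 mouse below. It spans chr11:117969452-117969616 on the minus strand, has 70.3% G and C, and lies within the annotated Socs3 gene (chromosome 11, 117966079 to 117970047) but outside its exons in GENCODE vM21. Capitals mark the match, which begins 154 bases before the RefSeq start site. The windows of Irf1 (chr11:53769913-53769943, plus strand) and Icam1 (chr9:21015887-21015917, plus strand) give the same pattern in 2 genes of the list of known STAT targets, 90 and 42 bases before their start sites. In that list 4 of the 18 genes with a promoter window held the pattern, and the others were Bcl6 and Cish, which are not printed.
Socs3: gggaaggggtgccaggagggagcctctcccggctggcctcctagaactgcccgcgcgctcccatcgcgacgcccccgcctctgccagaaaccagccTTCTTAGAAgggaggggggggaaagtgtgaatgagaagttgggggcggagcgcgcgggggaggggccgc
Irf1: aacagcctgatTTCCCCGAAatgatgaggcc
Icam1: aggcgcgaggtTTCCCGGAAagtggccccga
A match to these letters is a description of the sequence, and no binding was measured here.

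Reads assigned to genes numbered between 3356297 (the Eµ-TCL1 mouse) and 10252426 (Eµ-PRMT5 mouse 4). Eµ-PRMT5 mouse 1 had a value for 16379 symbols, against 20411 to 21475 in the other 7 mice. Mouse Prmt5 was between 62.7 and 235 CPM (CPM is the read count scaled to a common library total, here with trimmed mean of M values, TMM, factors) in the 7 mice with the PRMT5 transgene and 79.5 CPM in the Eµ-TCL1 mouse, and the human transgene was not analysed here. All 6 B cell markers examined, Cd79a, Ms4a1 and Pax5 among them, were present in every mouse, with a summed level from 1871 CPM in Eµ-PRMT5 mouse 4 to 8450 CPM in Eµ-PRMT5/TCL1 mouse 3. All 11 markers of neutrophils and their precursors were also counted in every mouse. Their summed level lay between 500.6 and 5478 CPM in Eµ-PRMT5 mice, between 690 and 9421 CPM in Eµ-PRMT5/TCL1 mice and at 707 CPM in the Eµ-TCL1 mouse. In bulk samples a larger share of a cell type and more RNA per cell cannot be told apart. In their respective groups, mouse 4 (Eµ-PRMT5) and mouse 1 (Eµ-PRMT5/TCL1) combined the lowest B cell sums with the highest sums for neutrophils and for macrophages.

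Per kilobase of annotated exon, which allows levels of different genes to be compared, Stat6, Jak1 and Stat3 led the 10 genes. Averaged over the 8 mice, Stat6 measured 95.3 CPM per kb, Jak1 72.9 and Stat3 54.6. Stat3 lay above the next gene, Tyk2 (24.4 CPM per kb), in 8 of 8 mice, and this was the clearest step in the order. Jak3 (22.1), Stat5b (20), Socs3 (15.6), Jak2 (9.88), Stat5a (5.74) and Stat4 (3.16 CPM per kb) followed. Neighbours were close. Stat6 exceeded Jak1 and Jak1 exceeded Stat3 in 6 of 8 mice each, Tyk2 exceeded Jak3 in 5, Jak3 exceeded Stat5b in 4, and in Eµ-PRMT5 mice the ranges of every neighbouring pair except Stat3 and Tyk2 overlapped. With the length of the longest transcript in place of all exons, Stat5a and Jak2 changed places.

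Among the 5 STAT genes Stat6 supplied 53.9 to 57.5% of the summed level per kb in Eµ-PRMT5 mice and 49.8 to 56.1% in Eµ-PRMT5/TCL1 mice, but 42.0% in the Eµ-TCL1 mouse, where Stat5b supplied 19.6% against 6.02 to 15.1% elsewhere. Among the 4 JAK genes, the share of Jak1 ran from 43.0 to 70.6% and that of Jak3 from 4.36 to 25.2% within the Eµ-PRMT5 mice alone. Shares within a family add to the whole, so a lower share of one gene raises the others.

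**Figure D1:**
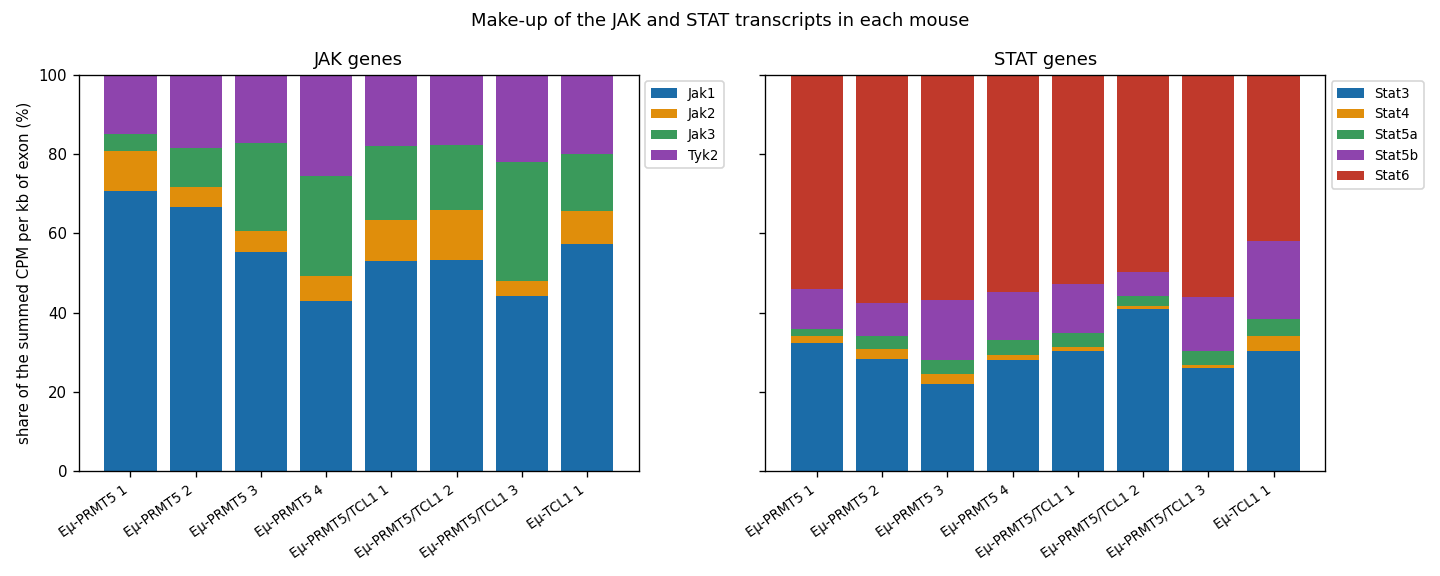
Stacked bars give, for each of the 8 mice, the share (%) of each gene in the summed CPM per kb of exon of the 4 JAK genes (left) or the 5 STAT genes (right). Jak1 is at 70.6% in Eµ-PRMT5 mouse 1 and 43.0% in mouse 4, while Stat6 lies between 49.8 and 57.5% in the 7 mice with the PRMT5 transgene and is at 42.0% in the Eµ-TCL1 mouse.

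None of the 10 genes passed the test in any of the 3 comparisons. Each pair of genotypes was compared, and a gene was called at an adjusted p under 0.05 and a change over 4-fold. That rule called 0 of 13173 genes (0%) in each comparison by edgeR, so the absence of calls is not particular to this pathway. At an unadjusted p under 0.05, edgeR placed 126 genes (0.957%) above and 160 (1.21%) below 0 for the double-transgenic Eµ-PRMT5/TCL1 group relative to Eµ-PRMT5, and 0 of the 10 members in either direction. DESeq2 called 4, 18 and 16 genes in the 3 comparisons, with no member among them. Between these replicated groups, 9 of the 10 members had a 95% interval that lay wholly within 4-fold in both directions. Only Stat4 reached past it, with a lower bound of -2.40 on the log2 scale.

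**Figure D2:**
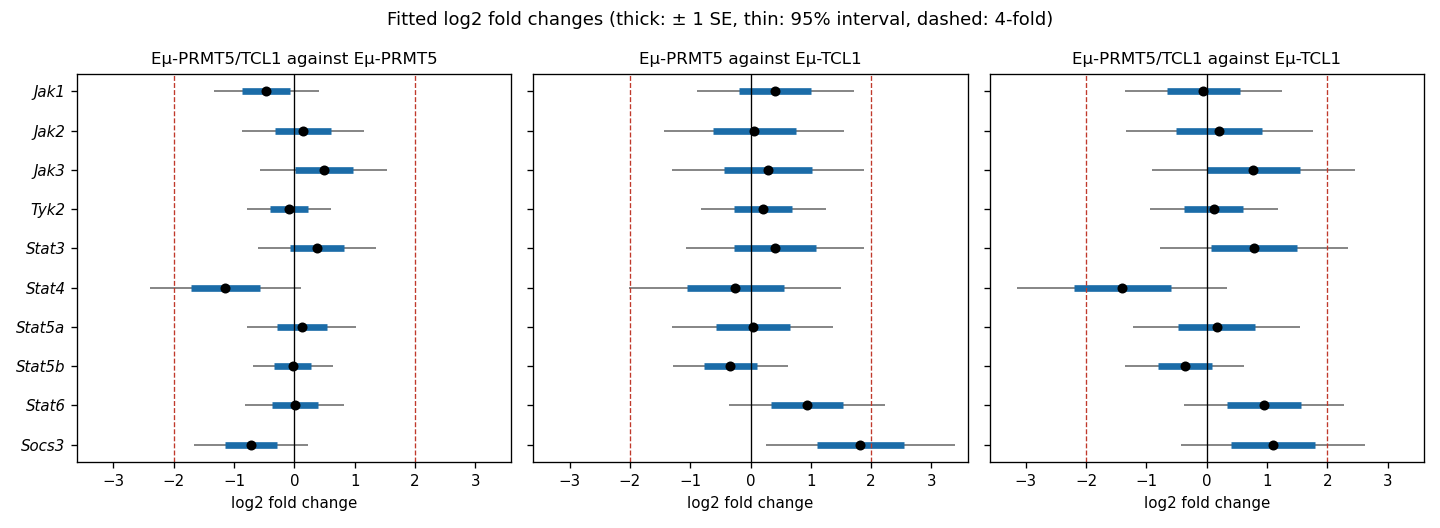
Points give the fitted log2 fold change of each gene in each comparison, thick bars ± 1 standard error, thin bars the 95% interval, and dashed lines a 4-fold change. The interval of Socs3 in Eµ-PRMT5 mice against the Eµ-TCL1 mouse (0.25 to 3.39) is the only one of the 30 that does not cover 0.

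Of the Janus kinases, Jak1, which serves nearly all of the receptors listed below, was the most abundant. Jak1 measured 862, 708, 549 and 314 CPM in Eµ-PRMT5 mice 1 to 4, 357, 503 and 461 CPM in Eµ-PRMT5/TCL1 mice 1 to 3, and 457 CPM in the Eµ-TCL1 mouse. The Eµ-PRMT5 mice spanned 2.74-fold and enclosed all other mice. The mean was 441 ± 75.2 (SD, n = 3) against 608 ± 234 CPM (n = 4), a log2 fold change of -0.47 (standard error 0.40, 95% interval -1.34 to 0.41, edgeR adjusted p = 1.00).

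Jak3 pairs with the common gamma chain in lymphocytes and varied 5.94-fold over the 8 mice. It measured 39.4, 79.5, 164 and 137 CPM in Eµ-PRMT5 mice 1 to 4, 92.8, 115 and 234 CPM in Eµ-PRMT5/TCL1 mice 1 to 3, and 86.0 CPM in the Eµ-TCL1 mouse. Mouse 1, the highest for Jak1, was the lowest of all 8 mice for Jak3. The ratio of Jak3 to Jak1, which does not depend on the scaling of a library, ran from 0.0457 to 0.435 among Eµ-PRMT5 mice, from 0.228 to 0.507 among Eµ-PRMT5/TCL1 mice and was 0.188 in the Eµ-TCL1 mouse. The log2 ratio differed by 0.95 between the replicated groups (two-sided exact permutation test over 35 splits, p = 0.40, adjusted over 4 ratios 0.486), less than its spread of 1.46 (SD, n = 4) in Eµ-PRMT5 mice. The fitted difference of Jak3 itself was 0.49 on the log2 scale (standard error 0.48) and -0.02 without Eµ-PRMT5/TCL1 mouse 3, so its direction rested on that mouse. With the replicate block it was 0.75 (unadjusted p = 0.0334, edgeR adjusted p = 0.696). Part of its exons (404 bases) is shared on the same strand with Insl3, so reads of these genes could not be told apart there.

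Jak2, which serves receptors for interferon gamma, the IL-3 family and hormones, was high in a single Eµ-PRMT5 mouse. It measured 85.6, 36.9, 37.4 and 32.5 CPM in Eµ-PRMT5 mice 1 to 4, 49.0, 82.2 and 27.8 CPM in Eµ-PRMT5/TCL1 mice 1 to 3, and 46.0 CPM in the Eµ-TCL1 mouse. The groups overlapped. The log2 fold change between the replicated groups was 0.14 (standard error 0.46), and it was 0.59 without Eµ-PRMT5 mouse 1 and -0.32 without Eµ-PRMT5/TCL1 mouse 2.

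Tyk2, the kinase of the interferon alpha and IL-12 receptors, was the steadiest gene within the Eµ-PRMT5 mice. It measured 173, 185, 163 and 177 CPM there, 116, 159 and 218 CPM in Eµ-PRMT5/TCL1 mice 1 to 3, and 151 CPM with TCL1 alone. Its coefficient of variation among Eµ-PRMT5 mice was 5.26%, against a median of 44.2% over the 10 members and 45.8% over all tested genes. Among the Eµ-PRMT5/TCL1 mice it was 31.3%, and the log2 fold change of -0.09 (standard error 0.32) was smaller than its error. A gene on the opposite strand, 1700084C06Rik, shares 554 exon bases with Tyk2, and whether strand was used in counting is not stated for these libraries.

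**Figure D3:**
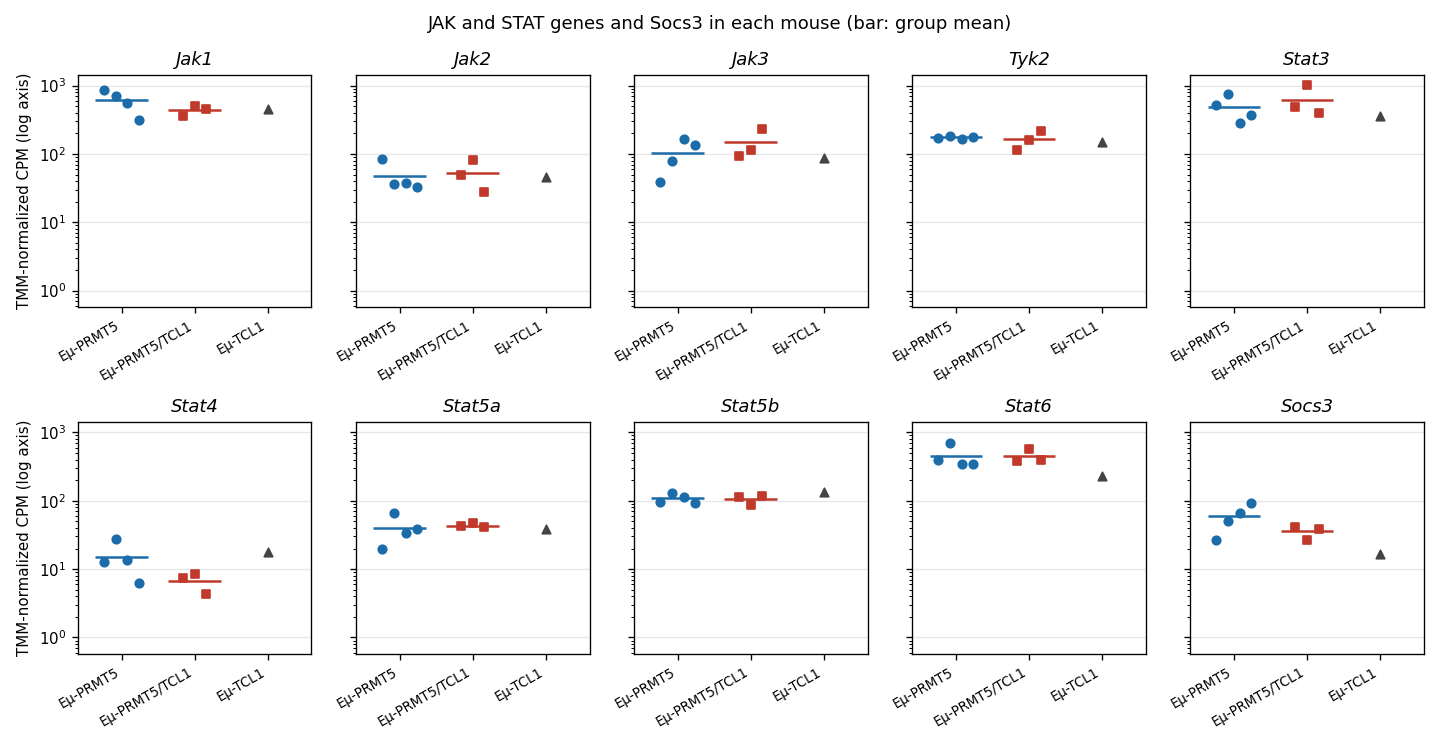
Each panel plots TMM-normalized CPM of 1 gene on a log axis, with 1 point per mouse (circles Eµ-PRMT5, squares Eµ-PRMT5/TCL1, triangle Eµ-TCL1, mouse 1 leftmost in its group) and a bar at the mean of each replicated group. The replicated groups overlap in all 10 panels, and the Eµ-TCL1 mouse lies below all other mice for Stat6 (232 CPM) and Socs3 (16.8 CPM) and above them for Stat5b (136 CPM).

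Stat3, the factor downstream of IL-6, IL-10 and IL-21, was the most variable of the abundant STAT genes. It measured 517, 744, 286 and 376 CPM in Eµ-PRMT5 mice 1 to 4, 478, 1008 and 390 CPM in Eµ-PRMT5/TCL1 mice 1 to 3, and 362 CPM in the Eµ-TCL1 mouse. Eµ-PRMT5/TCL1 mouse 2 held the highest level, and the groups overlapped. The log2 fold change between the replicated groups was 0.38 (standard error 0.45), and -0.15 without that mouse, so its direction rested on 1 library.

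Stat6, which carries the IL-4 signal in B cells, had almost equal means in the replicated groups. It measured 400, 700.9, 343 and 339 CPM in Eµ-PRMT5 mice 1 to 4 and 386, 568 and 389 CPM in Eµ-PRMT5/TCL1 mice 1 to 3. The mean was 446 ± 172 CPM (SD, n = 4) against 448 ± 104 CPM (n = 3), and the 95% interval of the log2 fold change ran from -0.82 to 0.83. The Eµ-TCL1 mouse, at 232 CPM, lay below all 7 other mice. The log2 fold change against it was 0.94 (standard error 0.59) in Eµ-PRMT5 mice and 0.95 (standard error 0.61) in Eµ-PRMT5/TCL1 mice, with edgeR adjusted p = 0.712 and 0.778. The 2 comparisons share that 1 mouse.

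Stat3 and Stat6 had the most alike profiles of any member pair. Over the 8 libraries their log2 CPM gave Pearson's r = 0.81 and Spearman's rho = 0.88, and the lowest r was that of Jak2 with Jak3 (r = -0.70). These are descriptions over 8 libraries that differ in genotype, depth and cell make-up.

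Stat5a and Stat5b, near-identical factors downstream of IL-2, IL-7 and IL-3 family receptors, lie 8626 bases apart on chromosome 11, and Stat5a overlaps the end of Stat3 on the opposite strand by 72 bases. Stat5b was the more abundant per kb in the mean over mice and the less variable. It measured 95.4, 129, 115 and 92.9 CPM in Eµ-PRMT5 mice 1 to 4, 113, 86.5 and 118 CPM in Eµ-PRMT5/TCL1 mice 1 to 3, and peaked at 136 CPM with TCL1 alone. Stat5a measured 19.7, 66.3, 34.0 and 38.7 CPM in Eµ-PRMT5 mice 1 to 4, 42.1, 47.0 and 40.7 CPM in Eµ-PRMT5/TCL1 mice 1 to 3, and 38.7 CPM in the Eµ-TCL1 mouse. The Eµ-PRMT5/TCL1 mice thus sat between the Eµ-PRMT5 extremes of Stat5a. The ratio of Stat5a to Stat5b lay between 0.206 and 0.513 in Eµ-PRMT5 mice and between 0.344 and 0.544 in Eµ-PRMT5/TCL1 mice, and the difference in log2 ratio of 0.28 gave p = 0.486 in the exact permutation test. Of the distinct 50-base words in their transcripts, 608 are common to both (8.21% of those of Stat5a and 10.98% of those of Stat5b), so a small part of the reads could belong to either gene.

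Stat4, the IL-12 factor known from T cells and NK cells, was the least abundant member and had the largest fitted difference between the replicated groups. It measured 12.8, 27.2, 13.4 and 6.34 CPM in Eµ-PRMT5 mice 1 to 4, 7.38, 8.58 and 4.30 CPM in Eµ-PRMT5/TCL1 mice 1 to 3, and 17.8 CPM in the Eµ-TCL1 mouse. Eµ-PRMT5 mouse 4 fell among the Eµ-PRMT5/TCL1 mice, and so the groups overlapped. The counts behind these values were 28 to 172 reads. The log2 fold change was -1.14 (standard error 0.58, 95% interval -2.40 to 0.11, unadjusted p = 0.0708 and adjusted p = 1.00 by edgeR), and it was -0.68 without Eµ-PRMT5 mouse 2, the highest, and -1.40 without mouse 4, the lowest of that group (unadjusted p = 0.0233). DESeq2 gave -1.15 (unadjusted p = 0.0395). Over the 15 alternatives the unadjusted p was under 0.05 in 3 and the adjusted p ran from 0.674 to 1.00.

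Set against Stat3 of the same library, Stat4 separated the replicated groups by range. The ratio of Stat4 to Stat3 was 0.0247, 0.0366, 0.0470 and 0.0169 for Eµ-PRMT5 mice 1 to 4, 0.0154, 0.00851 and 0.0110 for Eµ-PRMT5/TCL1 mice 1 to 3, and 0.0493 with TCL1 alone. The replicated groups did not overlap in this ratio. The difference in log2 ratio was -1.33 (exact permutation p = 0.0571, adjusted over 4 ratios 0.229, smallest p possible 0.0286), and it lay between -1.58 and -1.10 with any 1 of the 7 mice left out. In GENCODE, Stat4 shares 1033 exon bases on the same strand with Gm28177. Whether this changed the counts of Stat4 is not known, since the annotation used for counting is not given.

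Markers of T cells and NK cells were low beside those of B cells. The 8 T cell markers summed to between 96.8 and 472 CPM in Eµ-PRMT5 mice, between 77.8 and 126 CPM in Eµ-PRMT5/TCL1 mice and to 139 CPM in the Eµ-TCL1 mouse, and the 7 NK cell markers to between 62.4 and 398 CPM, 27.5 and 93.8 CPM and 43.0 CPM. None of these markers was at a count of 0 in a library that had a value for it. The highest T cell and NK cell sums (472 and 398 CPM) were both in Eµ-PRMT5 mouse 3, where Stat4 was 13.4 CPM. Nkg7 alone gave 279 CPM of that NK cell sum. Ncr1, Prf1 and Eomes were also highest in that mouse, but Gzma (1.14 CPM) and Klrk1 (8.43 CPM) were lower there than in Eµ-PRMT5 mice 1 and 2. The highest Stat4 (27.2 CPM, mouse 2) came with sums of 101 and 74.6 CPM. The part of these cells in the level of Stat4 was not tested.

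**Figure D4:**
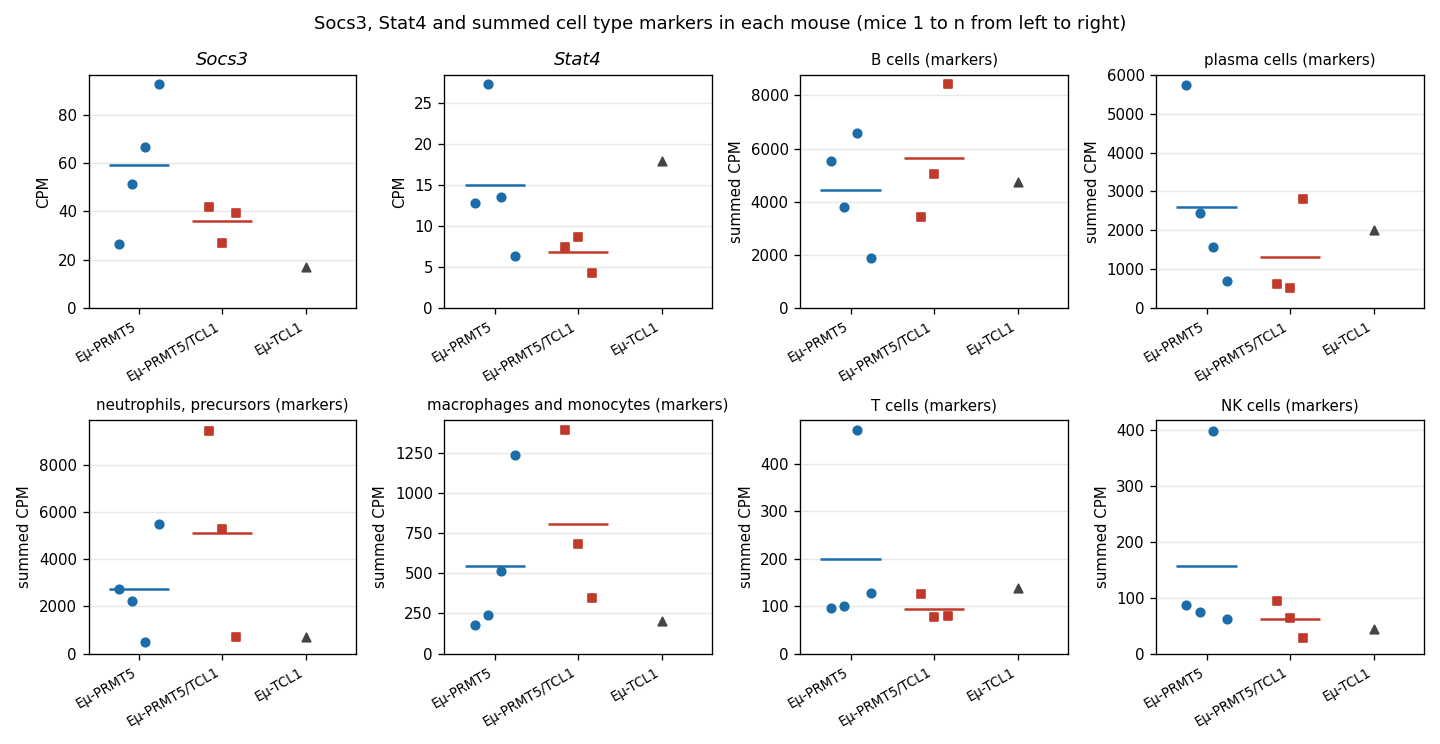
Points give CPM of Socs3 and Stat4 and the summed CPM of 6 cell type marker lists in each mouse (circles Eµ-PRMT5, squares Eµ-PRMT5/TCL1, triangle Eµ-TCL1, mouse 1 leftmost in its group), with a bar at the mean of each replicated group and all axes from 0. The T cell and NK cell sums peak in Eµ-PRMT5 mouse 3 (472 and 398 CPM), which is not the mouse with the highest Stat4. Nkg7 gives 279 CPM of that NK cell sum. Socs3 is highest in Eµ-PRMT5 mouse 4 (92.7 CPM), which has the highest macrophage sum of its group (1238 CPM). That mouse also has the lowest plasma cell sum of its group (681 CPM).

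Socs3, the inhibitor that STAT3 induces and that in turn blocks JAKs at gp130 receptors, was the member farthest from the Eµ-TCL1 mouse. It measured 26.6, 51.1, 66.6 and 92.7 CPM in Eµ-PRMT5 mice 1 to 4, 41.6, 27.02 and 39.2 CPM in Eµ-PRMT5/TCL1 mice 1 to 3, and 16.8 CPM (62 reads, 95% counting interval 12.9 to 21.5) in the Eµ-TCL1 mouse. The Eµ-TCL1 mouse lay below all 7 others, and the Eµ-PRMT5/TCL1 mice fell in the lower part of the Eµ-PRMT5 range. For Eµ-PRMT5/TCL1 mice the largest fitted difference from the Eµ-TCL1 mouse was that of Stat4 (log2 fold change -1.40), not of Socs3. In 14.2% of all tested genes that mouse was the lowest of the 8, beside 2 of the 10 members.

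Against the Eµ-TCL1 mouse, Socs3 was 3.53-fold higher in Eµ-PRMT5 mice (log2 fold change 1.82, standard error 0.72, 95% interval 0.25 to 3.39, higher in 4 of 4 mice). This gave an unadjusted p = 0.0264 and an adjusted p = 0.709 by edgeR, so it failed the correction, and the adjusted p ran from 0.294 to 0.951 over 14 alternatives. It was the 1 member of 10 higher at an unadjusted p under 0.05 in that comparison, beside 258 of all tested genes (1.96%), and no member was lower, beside 635 genes (4.82%). Without TMM factors 128 genes were higher and 794 lower, and by DESeq2 646 and 480, so the balance of directions across all genes depended on the scaling, while Socs3 stayed positive (1.57 and 1.92). The median change of all tested genes moved by -0.25 on the log2 scale without TMM factors. In Eµ-PRMT5/TCL1 mice the fitted difference from the Eµ-TCL1 mouse was 1.10 (standard error 0.70, adjusted p = 0.778). With 1 Eµ-TCL1 mouse these tests ask whether that mouse lies outside the spread of the others, and the genotypes themselves are not compared.

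Between the replicated groups Socs3 averaged 36.0 ± 7.83 CPM (SD, n = 3) in Eµ-PRMT5/TCL1 and 59.2 ± 27.7 CPM (n = 4) in Eµ-PRMT5 mice, a log2 fold change of -0.72 (standard error 0.43, edgeR adjusted p = 1.00). It was -0.42 without Eµ-PRMT5 mouse 4 and -0.95 without mouse 1 (unadjusted p = 0.0269 by edgeR). With the replicate block, which compares same-numbered mice, it was -0.36 (unadjusted p = 0.394). The summed level of macrophage and monocyte markers had the same order as Socs3 among the Eµ-PRMT5 mice. It was 176, 240 and 516 CPM in mice 1 to 3 and 1238 CPM in mouse 4. Of the single markers, Csf1r, Ly6c2 and Ccr2 had that order and Adgre1 and Cd68 did not. Adgre1 measured 19.7, 72.7, 15.0 and 17.5 CPM in mice 1 to 4, and Cd68 96.2, 75.7, 160 and 202 CPM. The sum did not go with Socs3 in Eµ-PRMT5/TCL1 mouse 1, which had 1390 CPM of these markers and 41.6 CPM of Socs3. The complement gene C1qb, which marks macrophages, was at 316 CPM in Eµ-PRMT5 mouse 4 and at most 40.5 CPM in the other mice with a value, and 3 of the 8 markers had no value in Eµ-PRMT5 mouse 1. Among the Eµ-PRMT5 mice the plasma cell marker sum had the reverse order of Socs3, at 5740, 2444, 1563 and 681 CPM in mice 1 to 4. Mouse 4 also had the lowest B cell sum and the highest neutrophil sum of that group. The part of any of these cell types in the level of Socs3 was not tested.

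The ratio of Socs3 to its inducer Stat3 spread over more than the ratio of any other pair examined in Eµ-PRMT5/TCL1 mice. It was 0.0514, 0.0687, 0.233 and 0.246 for Eµ-PRMT5 mice 1 to 4, 0.0871, 0.0268 and 0.100 for Eµ-PRMT5/TCL1 mice 1 to 3, and 0.0463 with TCL1 alone. Eµ-PRMT5/TCL1 mouse 2 joined the highest Stat3 of all mice with a Socs3 level near those of the lowest mice. The difference in log2 ratio between the replicated groups was -0.95 (exact permutation p = 0.286), and it was -0.35 without that mouse.

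With TMM factors, more members lay wholly above the Eµ-TCL1 mouse than wholly below it in both comparisons with that mouse. More of all tested genes lay below it than above it. This difference was not tested. Of the 10 members, 3 were higher in all 4 Eµ-PRMT5 mice than in the Eµ-TCL1 mouse (Tyk2, Stat6 and Socs3, against 17.9% of tested genes) and 1 was lower (Stat5b, against 24.4%). In Eµ-PRMT5/TCL1 mice 5 were higher (Jak3, Stat3, Stat5a, Stat6 and Socs3, against 27.6%) and 2 lower (Stat4 and Stat5b, against 39.0%). At an unadjusted p under 0.05 there were 0 members in that comparison, beside 1.75% of genes higher and 4.33% lower. Between the replicated groups, ranges of 0 members failed to overlap, beside 1.35% of genes higher and 1.59% lower in Eµ-PRMT5/TCL1 mice. Without TMM factors, Tyk2, Jak3, Stat3 and Stat5a overlapped with the Eµ-TCL1 mouse, whereas Stat6, Socs3 and Stat5b kept their places. Jak1 was then lower than that mouse in all 3 Eµ-PRMT5/TCL1 mice, as were Stat4 and Stat5b, and only Stat6 and Socs3 were higher. For Eµ-PRMT5/TCL1 mice, more members thus lay below that mouse than above it without TMM factors.

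Upstream of the members, 8 of 21 ligand genes were tested, the rest having no value in at least 1 library or too few reads. None was called. Oncostatin M (Osm), a gp130 cytokine made by myeloid cells and T cells, had the largest difference between the replicated groups. It measured 3.45, 12.3, 15.3 and 19.9 CPM in Eµ-PRMT5 mice 1 to 4, 28.0, 68.1 and 11.99 CPM in Eµ-PRMT5/TCL1 mice 1 to 3, and 12.98 CPM in the Eµ-TCL1 mouse. The fitted log2 difference between the replicated groups was 1.49 (standard error 0.64, unadjusted p = 0.0382, edgeR adjusted p = 1.00). Its highest level was in Eµ-PRMT5/TCL1 mouse 2, the mouse with the highest Stat3. Il12a, a subunit of IL-12 and IL-35, was 72.2 CPM in the Eµ-TCL1 mouse against 3.04 to 27.1 CPM in Eµ-PRMT5 mice (log2 fold change -2.45, standard error 0.81, adjusted p = 0.709), and 20.7 to 53.0 CPM in Eµ-PRMT5/TCL1 mice. Ebi3, shared by IL-27 and IL-35, was the most abundant ligand gene at 46.6 CPM per kb. The median log2 fold change of the 8 ligand genes between the replicated groups was 0.48, against -0.09 over all tested genes.

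Of 34 receptor subunits 32 were tested and none was called. Il2rg, the common gamma chain that binds Jak3, was the most abundant at 182 CPM per kb and lay between 361 and 492 CPM in Eµ-PRMT5 mice, between 453 and 530 CPM in Eµ-PRMT5/TCL1 mice, and at 306 CPM with TCL1 alone. The IL-7 receptor chain Il7r measured 30.6, 26.8, 35.8 and 1.61 CPM in Eµ-PRMT5 mice 1 to 4 and 7.38, 4.29 and 2.31 CPM in Eµ-PRMT5/TCL1 mice 1 to 3 (log2 fold change -2.34, standard error 0.85, unadjusted p = 0.0171, adjusted p = 1.00). The Eµ-TCL1 mouse was at 5.68 CPM of Il7r. As with Stat4, Eµ-PRMT5 mouse 4 lay with the Eµ-PRMT5/TCL1 mice. The IL-10 receptor chain Il10ra spanned 52.4 to 109 CPM in Eµ-PRMT5 mice, 105 to 162 CPM in Eµ-PRMT5/TCL1 mice, and stood at 37.9 CPM with TCL1 alone. The fitted log2 difference was 0.79 (standard error 0.34) between the replicated groups and 1.81 (standard error 0.59, unadjusted p = 0.00937, adjusted p = 0.778) for Eµ-PRMT5/TCL1 mice against the Eµ-TCL1 mouse.

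The Eµ-TCL1 mouse had the highest level of all 8 mice for several receptor chains outside the common gamma family. The oncostatin M receptor Osmr was 49.7 CPM there and at most 24.4 CPM elsewhere, the prolactin receptor Prlr 62.7 against at most 40.8 CPM, and Il23r 14.3 against at most 7.29 CPM. The gp130 chain Il6st, the signalling partner of Osmr, was 192 CPM there, 37.5 to 173 CPM in Eµ-PRMT5 mice (log2 fold change -0.98, standard error 0.77, unadjusted p = 0.226) and 17.0 to 87.5 CPM in Eµ-PRMT5/TCL1 mice (log2 fold change -1.75, standard error 0.79, unadjusted p = 0.0453, adjusted p = 0.778). Mouse 1 of the Eµ-PRMT5 group was close to it. Over all tested genes, the Eµ-TCL1 mouse lay above every Eµ-PRMT5 mouse in 24.4% and above every Eµ-PRMT5/TCL1 mouse in 39%. The share above both groups at once was not counted. At an unadjusted p under 0.05, 4 of the 32 subunits were lower and 0 higher in Eµ-PRMT5 mice than in that mouse, beside 4.82% and 1.96% of all tested genes. For Eµ-PRMT5/TCL1 mice 3 were lower and 1 higher, beside 4.33% and 1.75%. That mouse had the shallowest library.

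Among 20 inhibitors of the pathway other than Socs3, 19 were tested and none was called. Socs2, a STAT5-induced inhibitor of growth hormone signalling, went the other way from Socs3 in the Eµ-TCL1 mouse. It measured 73.8 CPM there, 18.9 to 36.7 CPM in Eµ-PRMT5 mice and 13.7 to 16.6 CPM in Eµ-PRMT5/TCL1 mice. The log2 fold change of Eµ-PRMT5/TCL1 mice against the Eµ-TCL1 mouse was -2.32 (standard error 0.54, unadjusted p = 0.000966, edgeR adjusted p = 0.739), and that of Eµ-PRMT5 mice -1.57 (standard error 0.52). The replicated groups did not overlap in Socs2 either, with a log2 fold change of -0.75 (standard error 0.40, unadjusted p = 0.0820). Ptpn6, which encodes the phosphatase SHP-1, was the most abundant inhibitor at 313 CPM per kb. It measured 485, 490, 1074 and 891 CPM in Eµ-PRMT5 mice 1 to 4, 886, 1137 and 1784 CPM in Eµ-PRMT5/TCL1 mice 1 to 3, and 267 CPM in the Eµ-TCL1 mouse, where it was lowest (log2 fold change 2.25, standard error 0.75, adjusted p = 0.778, for Eµ-PRMT5/TCL1 mice).

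Of 20 genes known as STAT targets 19 were tested and none was called. Between the replicated groups, 1 had an unadjusted p under 0.05 in each direction, beside 0.957% of all tested genes higher and 1.21% lower. Against the Eµ-TCL1 mouse 2 were higher and 3 lower in each comparison, beside 1.96% and 4.82% for Eµ-PRMT5 mice and 1.75% and 4.33% for Eµ-PRMT5/TCL1 mice. Ccnd2, the cyclin D2 gene, measured 268, 434, 393 and 264 CPM in Eµ-PRMT5 mice 1 to 4, 559, 506 and 828 CPM in Eµ-PRMT5/TCL1 mice 1 to 3, and 126 CPM with TCL1 alone. The 3 groups did not overlap in Ccnd2. The fitted log2 difference was 0.89 (standard error 0.36, unadjusted p = 0.0273, adjusted p = 1.00) between the replicated groups and 2.32 (standard error 0.63, adjusted p = 0.778) for Eµ-PRMT5/TCL1 mice against the Eµ-TCL1 mouse. Fcer2a, the CD23 gene that IL-4 induces through Stat6, measured 12.6, 19.3, 38.5 and 1.73 CPM in Eµ-PRMT5 mice 1 to 4. It was low in Eµ-PRMT5/TCL1 mice 1 to 3, at 2.13, 0.858 and 4.92 CPM, and in the Eµ-TCL1 mouse, at 2.70 CPM. Levels this low rest on few reads. The log2 fold change of Fcer2a between the replicated groups was -2.76 (standard error 0.93, unadjusted p = 0.0116 and adjusted p = 0.999994 by edgeR). The fitted log2 difference of Stat6 itself was 0.01, and Eµ-PRMT5 mouse 4 again lay with the Eµ-PRMT5/TCL1 mice.

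Irf1, whose promoter window is printed above, was 121 to 248 CPM in Eµ-PRMT5 mice, 176 to 211 CPM in Eµ-PRMT5/TCL1 mice and 54.3 CPM with TCL1 alone (log2 fold changes of 1.69 and 1.87 against that mouse, adjusted p = 0.709 and 0.778). Prdm1, the plasma cell regulator Blimp-1, was 210 CPM in the Eµ-TCL1 mouse and 29.5 to 95.2 CPM in the other 7 mice (log2 fold changes of -1.82 and -2.32). Prdm1 is also one of the 5 plasma cell markers, whose sum was 2005 CPM in the Eµ-TCL1 mouse and between 508 and 5740 CPM in the others. Mcl1, a survival gene, was the most abundant target at 77.8 CPM per kb, and its log2 fold change between the replicated groups was -0.07. Irf9, a DNA-binding partner of STAT proteins in interferon signalling, measured 21.9 CPM per kb and was tested and not called, with a log2 fold change of 0.47 (standard error 0.29, unadjusted p = 0.129, edgeR adjusted p = 1.00) between the replicated groups.

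**Figure D5:**
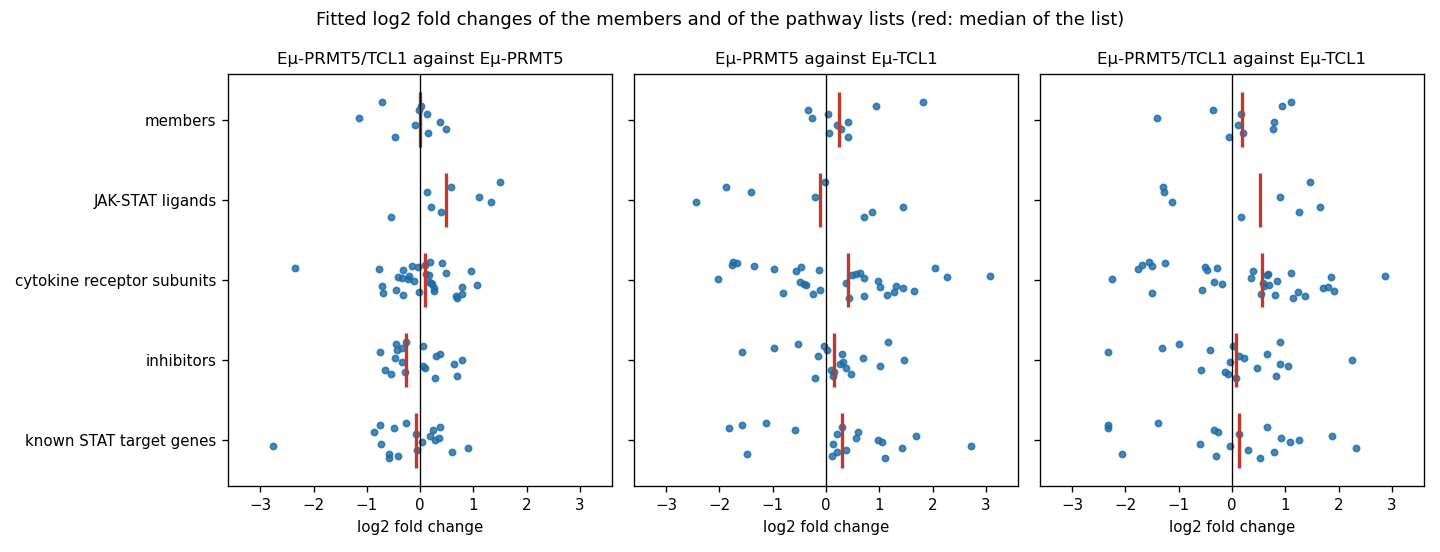
Points give the fitted log2 fold change of each of the 10 members and of each tested gene of the 4 larger pathway lists in the 3 comparisons, and red bars the median of each list. Most points lie within 1 of 0 between the replicated groups, and the points spread farther in both comparisons with the Eµ-TCL1 mouse.

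The medians of the lists differed in their distance from that of all genes. In Eµ-PRMT5/TCL1 against Eµ-PRMT5 mice the median log2 fold change was -0.01 for the 10 members, 0.48 for ligands, 0.10 for receptor subunits, -0.27 for inhibitors and -0.07 for targets, against -0.09 over all tested genes. Against the Eµ-TCL1 mouse the medians of the members were 0.25 for Eµ-PRMT5 and 0.18 for Eµ-PRMT5/TCL1 mice, against 0.04 and -0.07 over all tested genes. In the same order they were -0.11 and 0.53 for ligands, 0.41 and 0.56 for receptor subunits, 0.16 and 0.07 for inhibitors, and 0.29 and 0.14 for targets.

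The gene most like each member over the 8 libraries was found by Pearson's r of log2 CPM with all tested genes. Jak3 had the closest partner in Lrmp (r = 0.997), a gene of germinal center B cells also known as Jaw1, which ran from 77.1 to 621 CPM and had the same order of mice as Jak3 (rho = 1.00). The others were 2810002D19Rik for Jak1 (0.980), Zfyve21 for Jak2 (0.960), Rint1 for Tyk2 (0.929), Uhrf1bp1l for Stat3 (0.989), Tlcd1 for Stat4 (0.942), Cmtr2 for Stat5a (0.967), 4930563E22Rik for Stat5b (0.981) and Rnf44 for Stat6 (0.959). The genes most like Socs3 were Gm15421 (0.972), Adck1 (0.962) and Mcts1 (0.957). Gm15421 stood at 0 to 1.96 CPM. These values of r describe 8 libraries that share genotypes and depth, and by Spearman's rho the same partner came first, or tied for first, for 3 of the 10 members.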

How the data were processed

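Bulk RNA-seq of splenic B cells was measured in 8 mice, grouped by the genotype in their labels. The deposited values are raw counts for each gene symbol and mouse, without normalization or pooling by the authors. According to the methods, low-input RNA was preamplified, sequenced in paired ends and passed through CLEAR and then DESeq2, whereas the labels describe a stranded kit with greater depth. Submitters' processing notes name Subread, featureCounts, DESeq2 1.20.0 and GRCm38. Aligner, annotation and strand are not given for these libraries in the sources used here. Because replicates are single mice, p-values measure the spread between mice.

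The matrix holds NA in 36919 cells, whose meaning is not stated, so tests used the 14072 symbols that had a count in each of the 8 libraries. Counts were scaled with TMM factors and tested in edgeR 4.0.16 (R 4.3.3) with the quasi-likelihood test over all 3 groups (13173 genes, common biological coefficient of variation 0.483) and Benjamini-Hochberg adjustment, and the code was tested on simulated data. Calls needed an adjusted p under 0.05 and over 4-fold. Log2 CPM used a prior count of 2. Ratios of 4 member pairs were compared with a two-sided exact permutation test, with adjusted values over the 4. Counting intervals are exact binomial intervals at 95% and cover counting error only, since no molecular identifiers are described.

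Members and lists were chosen with earlier results of these data known. Named genes were all members, genes of each list at an unadjusted p under 0.05 (at most 4 per comparison) and the most abundant per kb, and the genes most like each member. Exon lengths and positions are from GENCODE vM21 (GRCm38) and promoters from RefSeq (GRCm38.p6). Numbers shared between mice of the replicated groups in the labels were tried as a block. Alternatives were DESeq2 1.42.0, other scalings and filters, NA counted as 0, only the groups compared, and each replicate left out. Values of a few genes on these lists are not reported here.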

Additional observations from a re-analysis of the deposited data

Results flagged for a closer look

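Among the 4 Eµ-PRMT5 mice, 14 measures were examined for a single mouse standing apart (the 10 members and the 4 log2 ratios), and by chance about 1 in 20 would be. Jak2 stood at 85.6 CPM in mouse 1, with the remaining Eµ-PRMT5 mice from 32.5 to 37.4 CPM, a gap of 0.91 of the whole range and past Dixon's 95% limit for 4 samples. Mouse 1 had the lowest number of symbols with a value (16379) and the highest plasma cell marker sum (5740 CPM). Stat6 stood at 700.9 CPM in mouse 2, with the remaining mice from 339 to 399.6 CPM, a gap of 0.83 of the range. No cause was tested for either value. The group of 3 Eµ-PRMT5/TCL1 mice and the single Eµ-TCL1 mouse were not tested in this way.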

How the results depend on the processing

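No member was called under any alternative run, and leaving out each of the 7 replicated mice in turn gave 0 to 0 called genes in each of the 3 comparisons. DESeq2 called 4 genes in Eµ-PRMT5/TCL1 against Eµ-PRMT5 mice, 18 in Eµ-PRMT5 and 16 in Eµ-PRMT5/TCL1 mice against the Eµ-TCL1 mouse, where edgeR called 0. Of 220 member results under other settings 204 kept their direction and 16 turned, and of 210 with a mouse left out 189 kept it and 21 turned. The cause was not tested.

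In Eµ-PRMT5/TCL1 against Eµ-PRMT5 mice, Stat6 turned to -0.00014 with DESeq2, Stat5b to 0.029 with upper-quartile factors, and Jak2 to -0.039 and Stat6 to -0.061 with the replicate block. In Eµ-PRMT5 mice against the Eµ-TCL1 mouse, library size alone gave -0.21 for Jak2, -0.043 for Tyk2 and -0.20 for Stat5a, upper-quartile factors gave -0.12 for Jak2 and -0.12 for Stat5a, and NA counted as 0 gave 0.012 for Stat4. In Eµ-PRMT5/TCL1 mice against it, library size alone gave -0.022 for Jak2, -0.11 for Tyk2 and -0.062 for Stat5a, and Jak1 became 0.034 with DESeq2, 0.24 with NA counted as 0 and 0.068 with only the 2 groups compared. With single mice left out, the ranges that crossed 0 between the replicated groups were -0.32 to 0.59 for Jak2, -0.015 to 0.79 for Jak3, -0.35 to 0.11 for Tyk2, -0.15 to 0.67 for Stat3, -0.083 to 0.49 for Stat5a, -0.12 to 0.10 for Stat5b and -0.20 to 0.31 for Stat6. In Eµ-PRMT5 mice against the Eµ-TCL1 mouse they were -0.26 to 0.21 for Jak2, -0.012 to 0.67 for Jak3, -0.72 to 0.0011 for Stat4 and -0.33 to 0.37 for Stat5a. In Eµ-PRMT5/TCL1 mice against it they were -0.16 to 0.076 for Jak1, -0.26 to 0.51 for Jak2 and -0.14 to 0.32 for Tyk2.

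With the replicate block the count of calls stayed at 0, and at an unadjusted p under 0.05 it put 495 genes above and 331 below 0, while Stat4 was at -1.37 (unadjusted p = 0.0276, edgeR adjusted p = 0.674) and Jak3 at 0.75 (unadjusted p = 0.0334, adjusted p = 0.696). Same-numbered mice correlated by 0.021, 0.106 and 0.162 in their deviations from the group means, so the numbers were not taken to pair the mice. Other scalings moved the split of directions at an unadjusted p under 0.05: the share of genes higher was 44.1%, 28.9% and 28.8% in the 3 comparisons with TMM factors, 37.1%, 57.4% and 51.2% with DESeq2, 57.4%, 20.05% and 25.8% with upper-quartile factors, and 47.0%, 13.9% and 14.9% with library size alone. The length of the longest transcript moved 2 genes in the order per kb, and Spearman's rho kept 3 of the 10 most similar genes. Among the members, depth limits Stat4 most, with 28 to 172 reads per mouse.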
